A study of Mus musculus with 6 samples.

Results

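The genes described here build the synaptic vesicle and carry out its fusion with the plasma membrane, together with the genes that lie across them on the other DNA strand. A list of 40 genes was taken by symbol from a mouse bulk RNA-seq count table of 57010 genes, and 12 further genes were added because at least 1 of their exonic bases lies opposite an exonic base of a listed gene. That gives 52 genes, and the rule itself uses no expression value, but the members were chosen with earlier results of these data known. The 12 added genes lie across 11 of the 40 listed genes, a share of 27.5%, where 16.8% of all genes in the table share exonic bases with a gene of the other strand.

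The table holds 2 groups of 3 polyadenylated RNA libraries, all labelled wild type. One group is mouse embryonic stem cells (ESCs), the pluripotent cells of the early embryo kept in culture. The other is primary neurons from cerebral cortex of embryonic day 16.5, held for 7 days in vitro, when such cultures are forming their first synapses. The study used both as pluripotent and neuronal reference points for a developmental trajectory. Strain, sex and the number of embryos are not given, nothing says that the replicates came from separate cultures or animals, and p-values therefore measure the spread between these libraries, which may be technical. The batch label equals the cell type, so batch and cell type cannot be told apart. The names of neuron libraries 2 and 3 contain the unexplained word "empty". In bulk RNA, fewer cells of a type and less RNA per cell cannot be told apart.

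A synaptic vesicle is filled with transmitter by proton-driven transporters, tethered near the release site by synapsins and Rab3 proteins, and docked and primed at the active zone. Calcium binding to a synaptotagmin then lets the SNARE proteins of vesicle and plasma membrane zip together, and the vesicle fuses. The membrane is retrieved with the help of clathrin, dynamin, endophilin and synaptojanin. Cortical neurons are known for high expression of most of these genes, and ESCs for little of it.

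How a read is assigned decides what a count of these genes means, because several of them share transcribed bases with a gene of the opposite strand. The tool that made the counts and its strand setting are not given in the sources used here. Without them, reads of a gene and of its antisense partner cannot be told apart, and each value below is the count that the deposited table assigns to that gene. If the reads were counted with the strand setting reversed, a value under a gene's name would come from reads of the other strand, that is, from the gene across from it where one exists. Whether this holds for the table was not tested, and it applies to the value of every gene below, markers included. The shared stretches are shown here because they are the bases on which both genes of a pair can be counted. All are from GENCODE M21 on GRCm38, 5′ to 3′ on the strand of the listed gene, with capitals marking bases that lie in exons of both genes. These windows are parts of longer shared stretches except in Rab3a.
Syp, chrX:7651837-7651866, plus strand, within the 3′ UTR stretch shared with Gm14703: GTCAGTGAAGCCCACGAAGACCCCACGGGT
Rab3a, chr8:70758649-70758677, plus strand, the 3′ end that meets Mpv17l2: TTGACATTAAAGAGAATTTAATGAATTTC
Unc13a, chr8:71624897-71624926, minus strand, where the 3′ UTR stretch shared with Colgalt1 begins: accaaacccaaagacTTCAGTGAAAACCAA
Pclo, chr5:14539741-14539852, plus strand, coding bases opposite Gm26918: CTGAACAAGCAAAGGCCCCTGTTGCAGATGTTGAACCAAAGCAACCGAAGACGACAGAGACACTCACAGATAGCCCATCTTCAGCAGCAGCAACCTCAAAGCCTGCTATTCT
Slc32a1, chr2:158611242-158611361, plus strand, the first coding bases, opposite Gm14205: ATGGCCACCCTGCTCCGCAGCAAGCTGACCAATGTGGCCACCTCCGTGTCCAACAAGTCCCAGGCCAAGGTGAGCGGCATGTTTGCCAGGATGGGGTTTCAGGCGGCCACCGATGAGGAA

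The 12 pairs overlap in different ways. Syp, Syn1, Rab3a and Unc13a run tail to tail into their neighbours, sharing 875, 9, 29 and 495 exonic bases of 3′ UTR with Gm14703, Araf, Mpv17l2 and Colgalt1. Sv2b and Synj1 lie head to head with 1500012K07Rik and 4930404I05Rik, sharing 47 and 65 bases around the starts. Syt4 also lies head to head with its neighbour, Gm26658, over 566 bases, of which 327 are coding. The others lie inside the listed gene: Gm14205 within Slc32a1 (697 shared bases), Gm26918 and Gm26954 within Pclo (429 and 496 coding bases), Timp4 within Syn2 (90 coding bases) and Timp3 within Syn3 (1733 bases of a non-coding exon). Of the neighbours, 5 are protein-coding genes with functions of their own, among them the kinase gene Araf and the metalloproteinase inhibitor genes Timp3 and Timp4, and the other 7 are annotated as antisense or other non-coding genes.

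The libraries were shallow: each ESC library held 1368303 to 1775055 counts and each neuron library 513425 to 624792. Levels are given as CPM, counts scaled to a common depth with TMM factors, and on that scale 3 counts came to 2.26 to 2.90 CPM in ESCs and 3.92 to 4.81 CPM in neurons, and these are the limits that a count of 0 allows, for counting error only. Genes that share exonic bases with an opposite-strand gene held 90.9% to 91.9% of all counts in ESCs and 88.5% to 89.4% in neurons. Of the 13 mitochondrial mRNAs, mt-Nd6, the 1 encoded on the minus strand, held 79.1 ± 9.58% of their counts in ESCs and 35.1 ± 2.00% in neurons (SD, n = 3 each). These shares bear on the strand to which reads were assigned, and their part in the results below was not tested. Summed levels of 8 neuron markers were 166 to 208 CPM in ESCs and 1082 to 1323 CPM in neurons, of 7 inhibitory neuron markers 0.967 to 3.01 and 489 to 645 CPM, and of 8 pluripotent cell markers 131 to 190 and 0 to 1.49 CPM. Most of the neuron marker counts in neurons were on Nefm, with 164, 168 and 139 counts in ESCs and 771, 837 and 699 in neurons, and most of the inhibitory ones on Dlx1, with 1, 0 and 3 against 471, 319 and 303. Among the other neuron markers, Rbfox3 had no count in ESCs and 4, 5 and 2 in neurons, while Tubb3 had 10, 4 and 8 in ESCs and only 4, 2 and 1 in neurons, and Stmn2 had 27, 25 and 16 against 8, 1 and 3. Nefm and Dlx1 share exonic bases with an opposite-strand gene, and no exon of Rbfox3, Tubb3 or Stmn2 lies within the span of one. Markers of other cells ran, in ESCs and in neurons, from 3.62 to 5.80 and 46.5 to 74.5 CPM (astrocytes), 24.1 to 29.9 and 40.1 to 60.0 (oligodendrocyte lineage), 201 to 266 and 130 to 145 (microglia, with Itgam and Tmem119 at 0 in both), 28.1 to 31.6 and 71.5 to 115 (neural progenitors), and 4.52 to 10.9 and 0 to 2.98 (endothelium). Most of the microglia counts in both groups were on Csf1r, with 266, 258 and 204 in ESCs and 97, 89 and 75 in neurons. Csf1r shares exonic bases with an opposite-strand gene. Most of the progenitor counts in neurons were on Pax6, with 8, 8 and 4 in ESCs and 61, 41 and 64 in neurons. Vim, of the same list, had 23, 13 and 17 in ESCs and 0 in neurons. Few list genes had enough counts for the test described below. Tested were 4 of the 8 neuron, 1 of the 7 inhibitory neuron and 4 of the 8 pluripotent cell markers. The oligodendrocyte lineage and microglia lists had 2 tested genes each, and the astrocyte and progenitor lists 1 each. All of these passed, where 85.6% of all tested genes did. Those higher in neurons numbered 3 for neurons and 1 each for inhibitory neurons, astrocytes, oligodendrocyte lineage and progenitors. Those lower numbered 1 for neurons, 4 for pluripotent cells, 1 for the oligodendrocyte lineage and 2 for microglia. No endothelial gene was tested.

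The listed vesicle genes received few counts in either cell type, and more of what they did receive lay on 2 genes than on all others. The 40 genes together had 1240, 1081 and 1054 counts in ESCs, or 0.0734 ± 0.00491% of the library (SD, n = 3), and in neurons 677, 541 and 542 counts, or 0.104 ± 0.00580%. Without Syn3 and Unc13a the sums were 304, 237 and 256 counts in ESCs against 144, 123 and 120 in neurons. As shares of the library these came to 0.0173 ± 0.000115% in ESCs and 0.0228 ± 0.000660% in neurons. Of the 40 genes, 26 stayed under 10 counts in every library. The 12 opposite-strand genes had 712, 516 and 589 counts in ESCs and 4262, 3991 and 3556 in neurons, or 0.0392 ± 0.00132% and 0.697 ± 0.0180% of the library. The neuron libraries therefore held more counts opposite 11 of the vesicle genes than on all 40 of them.

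**Figure D1:**
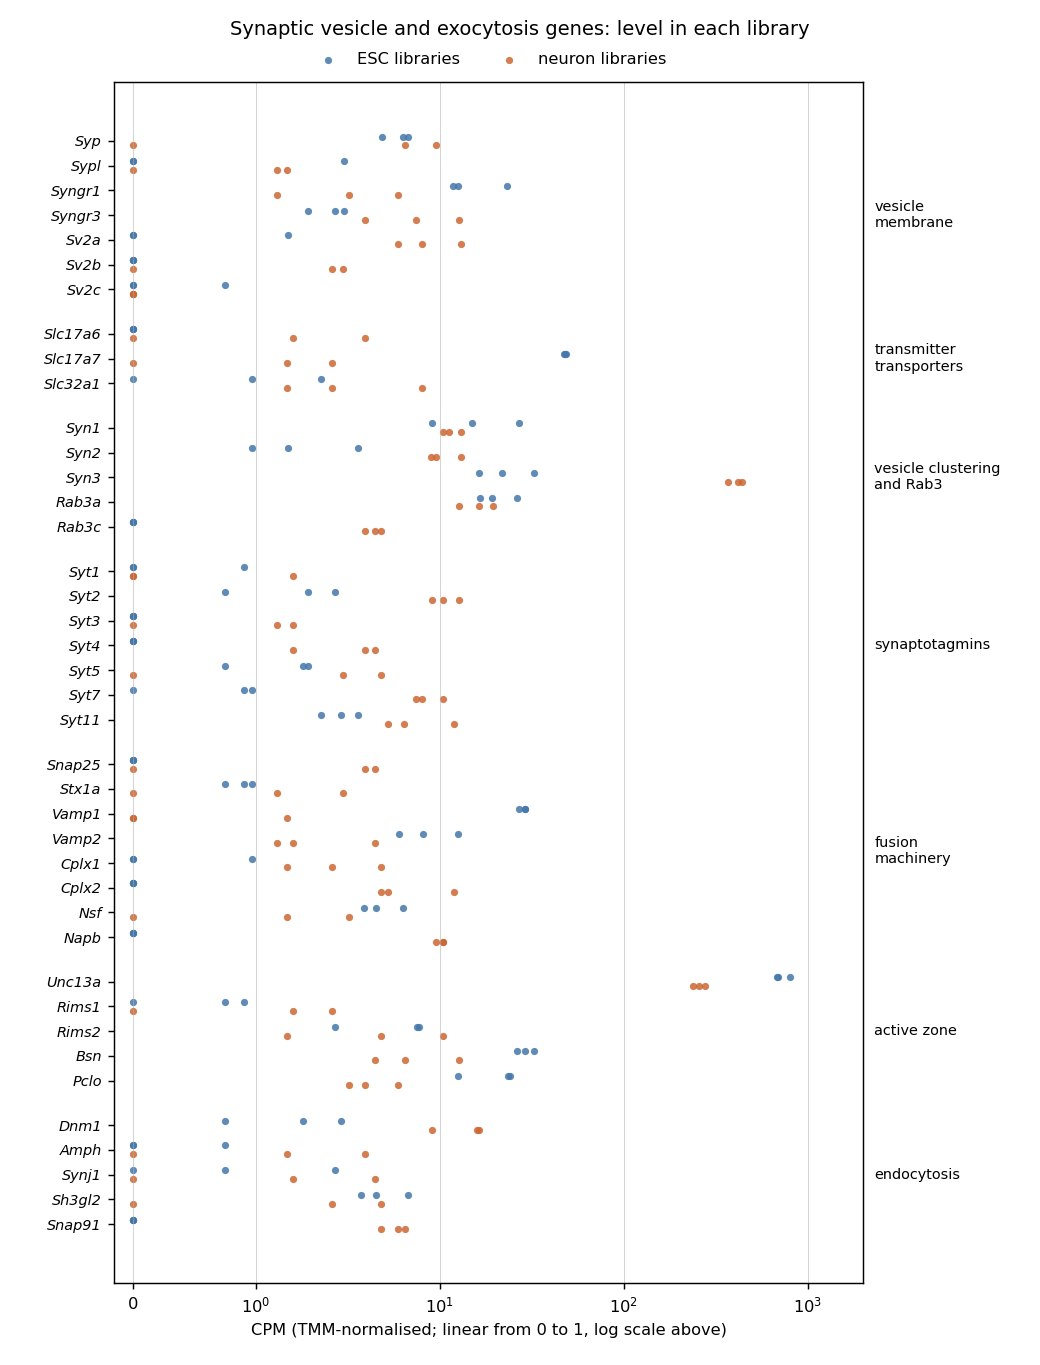
CPM of each of the 40 listed genes in each library, ordered by role in the vesicle cycle; the axis is linear from 0 to 1 and logarithmic above, each point is 1 library, blue for ESCs and orange for neurons. Most genes sit near or below the level of a few counts in both groups, Unc13a is high in ESCs (724 CPM on average) and Syn3 in neurons (407 CPM).

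The neuron and ESC groups were compared by edgeR (quasi-likelihood test) over all genes with enough counts, at a Benjamini-Hochberg adjusted threshold of 0.05. Among the 52 genes, 23 had enough counts for the test and 20 passed it, 15 higher and 5 lower in neurons. These shares stand beside a very wide background: 85.6% of the 7150 tested genes passed, 47.0% higher and 38.6% lower. Of the 40 listed genes 11 were tested, and 9 passed: Syn2, Syn3, Syt2, Napb and Dnm1 higher, and Slc17a7, Vamp1, Unc13a and Bsn lower. All 12 opposite-strand genes were tested, and 10 passed as higher and 1 as lower. Against a 2-fold change, 19 of the 23 passed, 15 of them higher, where 67.4% of all tested genes did so, 38.0% higher. Without the filter on low counts 19 of the 40 listed genes passed, 12 higher and 7 lower, where 40.8% of the 28820 genes with at least 1 count did, 21.2% higher and 19.6% lower. The genes added there were Sv2a, Rab3c, Syt4, Syt7, Snap25, Cplx2 and Snap91 as higher and Syngr1, Vamp2 and Pclo as lower, none with more than 32 counts in a library. Because a gene enters the test through the group in which it is high, the count of tested genes that passed is a description of those genes and not of the list. The median log2 fold change was -0.32 over the 11 listed genes tested and 6.47 over the 12 opposite-strand genes, beside 0.37 over all tested genes.

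The listed genes of vesicle membrane proteins had too few counts for a test. Syp encodes synaptophysin, the most widely used marker of synaptic vesicles. It had 9, 5 and 7 counts in ESCs and 5, 0 and 6 in neurons, so the groups overlapped, at 1.15 ± 0.195 and 1.03 ± 0.942 CPM per kb (SD, n = 3). Syngr1 and Syngr3 encode synaptogyrins, relatives of synaptophysin. Syngr1 had 31, 13 and 13 counts in ESCs and 1, 4 and 2 in neurons, and Syngr3 had 4, 2 and 3 against 3, 5 and 8. Sypl, a further relative, had at most 4 counts. Sv2a, whose protein is the binding site of the antiepileptic levetiracetam, had 2, 0 and 0 counts in ESCs and 10, 4 and 5 in neurons. Its paralogue Sv2b had 0 counts in all ESC libraries and 2, 2 and 0 in neurons, and Sv2c had 1 count in 1 ESC library and none in neurons.

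Of the listed transmitter transporters only Slc17a7 was tested, and it was lower in neurons. Slc17a7, the vesicular glutamate transporter of cortical excitatory neurons, lies on chromosome 7 at 44813373 to 44825566, with no gene across it. It had 64, 49 and 54 counts in ESCs and 2, 1 and 0 in neurons, and no neuron library came near an ESC library. Mean levels were 48.1 ± 0.732 CPM and 1.37 ± 1.31 CPM (SD, n = 3), and the log2 fold change was -4.93 ± 0.49 (SE, adjusted p = 9.87e-12 by edgeR). With 3 counts in all neuron libraries together, the level in ESCs was 33.1 times that in neurons, with an exact 95% counting interval of 11.1 to 162. Leaving out neuron library 1 moved the log2 fold change to -5.74. Slc17a6, the other main vesicular glutamate transporter, had 0 counts in ESCs and 3, 0 and 1 in neurons. Slc32a1, which loads GABA and glycine, had 3, 1 and 0 counts in ESCs and 2, 1 and 5 in neurons.

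Among the genes of vesicle clustering and Rab3 signalling, Syn3 and Syn2 were higher in neurons, and Syn3 had the most neuron counts of all listed genes. Syn3 encodes synapsin III, the synapsin known for early expression in developing neurons, and lies on chromosome 10 at 85890989 to 86334760, minus strand. Its counts were 29, 17 and 36 in ESCs and 320, 246 and 273 in neurons. All neuron libraries were far above all ESC libraries, at 407 ± 36.6 against 23.6 ± 8.21 CPM, a log2 fold change of 4.10 ± 0.19 (SE, adjusted p = 6.75e-22 by edgeR). Syn2, another synapsin gene, had 2, 1 and 4 counts in ESCs and 10, 6 and 6 in neurons, a log2 fold change of 2.33 ± 0.52 (SE, adjusted p = 8.96e-05 by edgeR).

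Syn1, the gene of synapsin I, and Rab3a did not pass the test. Syn1 had 20, 28 and 10 counts in ESCs and 10, 7 and 7 in neurons, and the groups overlapped in CPM, with a log2 fold change of -0.53 ± 0.41 (SE, adjusted p = 0.223 by edgeR). Without ESC library 3, which had the fewest of those counts, it passed at -0.92 (adjusted p = 0.0374 by edgeR), and scaling by total counts alone gave 0.20. Rab3a, the main Rab GTPase of synaptic vesicles, had 22, 20 and 29 counts in ESCs and 15, 11 and 8 in neurons, overlapping in CPM, with a log2 fold change of -0.32 ± 0.34 (SE, adjusted p = 0.38 by edgeR). It was 0.41 with total counts. Per kb of exon, Rab3a was still among the 3 highest listed genes in both groups, at 9.31 ± 2.24 CPM per kb in ESCs and 7.31 ± 1.52 in neurons. Rab3c had 0 counts in ESCs and 3 in each neuron library.

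The 7 listed synaptotagmins, from the family of the calcium sensors of release, were all below 10 counts in every library. Syt1, the sensor of fast release in forebrain neurons, had 1 count in 1 library of each group. Syt2, the fast sensor best known from hindbrain and spinal cord, was the 1 member tested: 1, 2 and 3 counts in ESCs and 7, 7 and 8 in neurons, with no overlap in CPM and a log2 fold change of 2.53 ± 0.52 (SE, adjusted p = 3.38e-05 by edgeR). Syt7, a slower sensor of high calcium affinity, had 0, 1 and 1 counts against 8, 5 and 5. Syt4 and Syt11 encode synaptotagmins that bind calcium poorly. Syt4 had 0 counts in ESCs and 3, 3 and 1 in neurons, and Syt11 had 3, 3 and 4 against 4, 8 and 4. Syt3 had 0 counts in ESCs and 1, 0 and 1 in neurons, and Syt5 had 1, 2 and 2 against 0, 2 and 3.

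Among the fusion genes, the SNARE gene Snap25 had 0 counts in all ESC libraries and 3, 3 and 0 in neurons, and its partner syntaxin gene Stx1a had 1, 1 and 1 against 1, 2 and 0. Vamp1 and Vamp2 encode synaptobrevins, the vesicle SNAREs. Vamp1, on chromosome 6 at 125192514 to 125222927, had 36, 30 and 32 counts in ESCs and 0, 1 and 0 in neurons. That is 28.4 ± 1.09 against 0.497 ± 0.860 CPM, with a log2 fold change of -5.52 ± 0.67 (SE, adjusted p = 1.39e-09 by edgeR). With 1 neuron count in all, the ratio was 58.3 with an exact 95% counting interval of 10.2 to 2324, and leaving out neuron library 2, which held that count, moved the log2 fold change to -7.81. Vamp2 was also lower in all neuron libraries, at 8, 13 and 9 counts against 1, 3 and 1, but was not tested.

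Of the genes that recycle and clamp SNAREs, Napb passed as higher. Napb, the brain form of the adaptor that recruits the ATPase NSF to spent SNARE complexes, had 0 counts in ESCs and 8, 7 and 6 in neurons. It was at least 3.87-fold higher in neurons, taking 3 counts per ESC library as the limit (adjusted p = 2.77e-08 by edgeR). Nsf itself had 6, 4 and 7 counts in ESCs and 0, 1 and 2 in neurons, and was not tested. The complexin genes, whose proteins clamp and then promote fusion, had few counts, with Cplx1 at 0, 1 and 0 against 2, 1 and 3 and Cplx2 at 0 in ESCs against 4, 8 and 3.

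Of the 5 listed active zone genes, 2 were tested, Unc13a and Bsn, and both were lower in neurons. Unc13a encodes the priming factor Munc13-1 and lies on chromosome 8 at 72077061 to 72124401, minus strand. It had more counts than all other listed genes together in ESCs: 907, 827 and 762, against 213, 172 and 149 in neurons. Its levels were 724 ± 65.9 and 258 ± 19.6 CPM (57.4 and 20.4 CPM per kb), with a log2 fold change of -1.49 ± 0.12 (SE, adjusted p = 2.93e-14 by edgeR). Bsn encodes bassoon, a giant scaffold of the active zone, and had 35, 30 and 36 counts in ESCs and 5, 3 and 8 in neurons, a log2 fold change of -1.89 ± 0.38 (SE, adjusted p = 2.56e-05 by edgeR). Bsn also shares 57 exonic bases with another gene of its own strand, so some of its reads may be assigned to either gene or left out. Pclo, the related scaffold piccolo, had 32, 13 and 26 counts against 3, 4 and 2. Rims1 and Rims2, which link vesicles to calcium channels, had 1, 0 and 1 against 2, 0 and 1 and 10, 8 and 3 against 8, 1 and 3.

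Of the retrieval genes, Dnm1, the neuronal dynamin that cuts vesicles from the membrane, passed as higher. It had 1, 3 and 2 counts in ESCs and 7, 11 and 10 in neurons, with a log2 fold change of 2.88 ± 0.52 (SE, adjusted p = 4.32e-06 by edgeR). Snap91, the clathrin assembly protein AP180, had 0 counts in ESCs and 5, 4 and 3 in neurons. Amph (amphiphysin), Synj1 (synaptojanin 1) and Sh3gl2 (endophilin A1) had at most 7 counts in any library, and their groups overlapped. Over the 40 listed genes, the CPM values of the groups did not overlap for 22, of which 14 were higher and 8 lower in neurons. Among the 28820 genes of the table with at least 1 count, 24.2% were apart and higher and 22.8% apart and lower.

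Across from these genes the neuron counts were larger, and 10 of the 12 genes passed as higher in neurons. Gm14703, an antisense gene on chromosome X at 7517345 to 7523497 whose end overlaps the 3′ UTR of Syp, had 46, 42 and 44 counts in ESCs and 1355, 1218 and 1142 in neurons. It rose from 38.4 ± 3.26 to 1805 ± 32.3 CPM, a log2 fold change of 5.56 ± 0.13 (SE, adjusted p = 1.23e-30 by edgeR), while Syp itself overlapped between groups. Gm26658, antisense to Syt4, had 7, 5 and 3 counts in ESCs and 1595, 1664 and 1353 in neurons, or 4.27 ± 1.37 and 2243 ± 209 CPM, with a log2 fold change of 8.97 ± 0.18 (SE, adjusted p = 9.12e-33 by edgeR). In neurons these genes had the highest levels per kb of the 52, at 991.5 ± 17.8 and 897 ± 83.7 CPM per kb, followed by Gm26918 at 425 ± 12.4. The highest listed gene, Syn3, reached 33.2 ± 2.98.

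**Figure D2:**
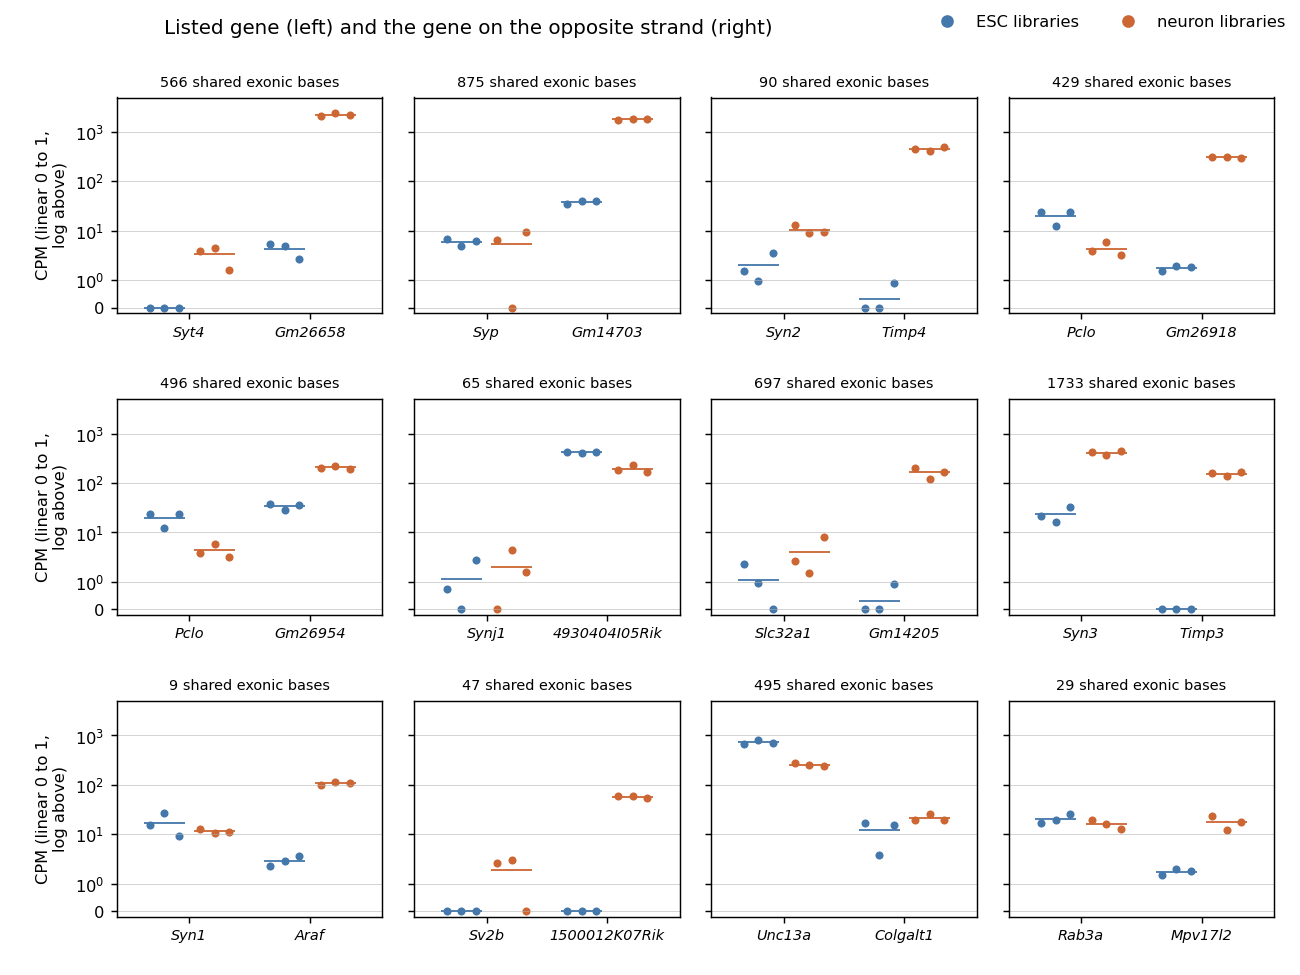
CPM per library of each listed gene and of the gene on the opposite strand that shares exonic bases with it, for the 12 pairs, on an axis that is linear near 0 and logarithmic above; blue points are ESC and orange points neuron libraries, and horizontal lines mark the means of 3 libraries. Opposite Syp, Syt4, Syn2 and Slc32a1 the neuron libraries lie above 100 CPM on the opposite-strand gene and below 20 CPM on the listed gene.

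The antisense and other non-coding genes opposite Slc32a1, Sv2b and Pclo were also higher in neurons. Gm14205, opposite the start of the Slc32a1 coding sequence, had 0, 0 and 1 counts in ESCs and 158, 81 and 106 in neurons. The neuron level was 580 times the ESC level, with an exact 95% counting interval of 104 to 22990 (log2 fold change 8.61 ± 0.45 SE, adjusted p = 9.33e-20 by edgeR). Without ESC library 3, which held the single count, it was 10.14, and without ESC library 1 it was 8.01. 1500012K07Rik, head to head with Sv2b, had 0 counts in ESCs and 45, 39 and 34 in neurons, at least 21.8-fold higher in neurons (adjusted p = 7.75e-15 by edgeR). Gm26918, inside Pclo, had 2, 2 and 2 counts against 239, 213 and 187 (log2 fold change 7.38 ± 0.27 SE, adjusted p = 1.26e-24 by edgeR). Gm26954, also inside Pclo, had 51, 29 and 40 against 158, 151 and 122 (2.60 ± 0.19 SE, adjusted p = 1.41e-15 by edgeR). Pclo itself had fewer counts in every neuron library than in any ESC library.

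Of the 5 protein-coding neighbours, 4 passed as higher in neurons. Timp4, whose gene sits within Syn2, had 0, 0 and 1 counts in ESCs and 341, 272 and 309 in neurons. Its ratio was 1551 with an exact 95% counting interval of 278 to 61330, and its log2 fold change was 10.05 ± 0.33 (SE, adjusted p = 2e-26 by edgeR), or 11.58 without ESC library 3 and 9.44 without ESC library 1. Timp3, within Syn3, had 0 counts in ESCs and 121, 95 and 106 in neurons, at least 59.6-fold higher (adjusted p = 4.89e-20 by edgeR). Araf, which meets Syn1 tail to tail, had 3, 3 and 4 counts against 76, 78 and 68, or 2.93 ± 0.681 and 108 ± 8.56 CPM (log2 fold change 5.16 ± 0.33 SE, adjusted p = 2.78e-17 by edgeR). Mpv17l2, a mitochondrial protein gene that meets Rab3a, had 2, 2 and 2 against 18, 8 and 11 (3.27 ± 0.50 SE, adjusted p = 2.22e-07 by edgeR). Colgalt1, a collagen galactosyltransferase gene that meets Unc13a, had 22, 4 and 17 against 15, 17 and 12, with a log2 fold change of 0.79 ± 0.38 (SE, adjusted p = 0.0539 by edgeR). It passed without ESC library 1, at 1.04, and with total counts, at 1.52, but was 0.35 without ESC library 2 (adjusted p = 0.353 by edgeR) and 0.59 without neuron library 2 (adjusted p = 0.215 by edgeR).

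4930404I05Rik, head to head with Synj1, was the 1 opposite-strand gene that fell. It had 579, 429 and 475 counts in ESCs and 141, 155 and 106 in neurons, or 427 ± 10.7 and 195 ± 32 CPM, with a log2 fold change of -1.13 ± 0.13 (SE, adjusted p = 6.23e-10 by edgeR), and did not pass against a 2-fold change. At 126.5 ± 3.17 CPM per kb it had the highest level of the 52 genes in ESCs, followed by Unc13a at 57.4 ± 5.22 and Gm26954 at 27.2 ± 4.33. Among all 4674 tested genes that share exonic bases with an opposite-strand gene, 41.2% passed as higher in neurons and 43.4% as lower.

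**Figure D3:**
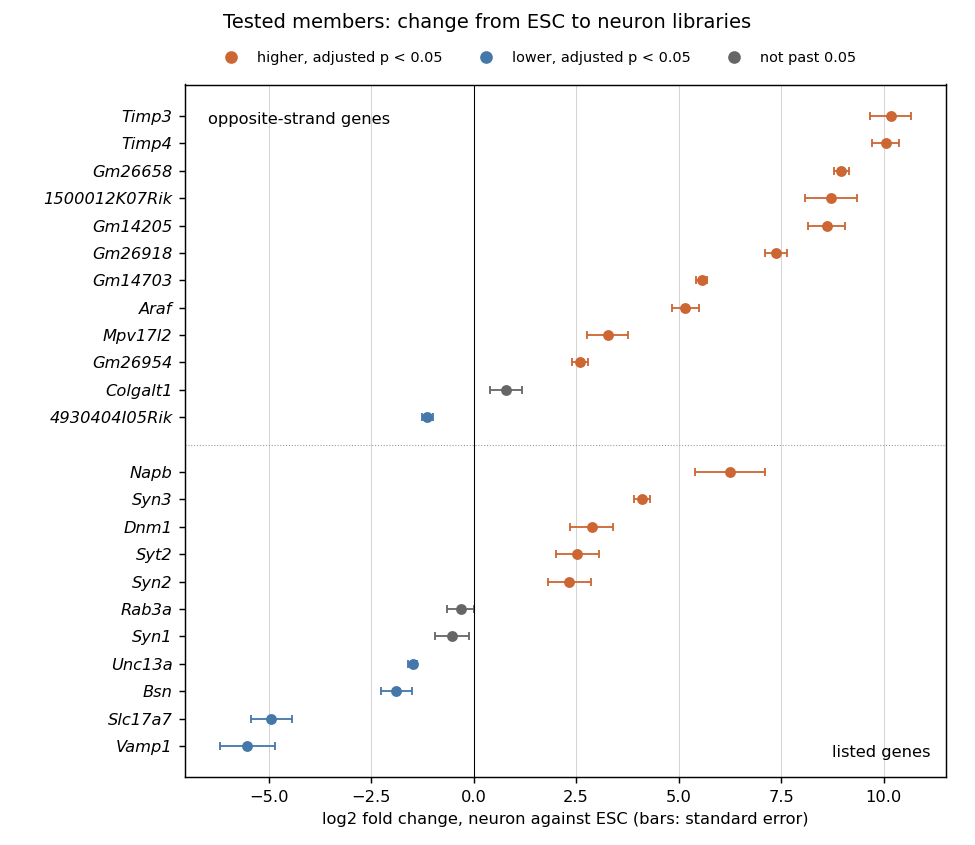
Log2 fold change (neuron over ESC) with its standard error for the 23 tested genes of the 52, opposite-strand genes above and listed genes below the dotted line, orange where higher and blue where lower by the edgeR test and grey where not past it. Listed genes lie on both sides of 0, from -5.52 (Vamp1) to 6.25 (Napb), whereas among the opposite-strand genes only 4930404I05Rik lies below 0; values for genes at 0 in ESCs depend on the prior count and are not bounds.

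Both genes of a locus were also summed, so that a read from the shared bases stays in the sum if it was assigned to either gene. If the counter left such reads out, the sum lacks them too, and this was not tested. Reads outside the shared bases are not affected by the summing, and the shared bases number only 9 at Syn1, 29 at Rab3a and 47 at Sv2b. In that fit all 11 loci passed, 9 higher and 2 lower in neurons. The Syp locus had 55, 47 and 51 counts in ESCs and 1360, 1218 and 1148 in neurons (log2 fold change 5.35 ± 0.13 SE, adjusted p = 1.91e-30 by edgeR). Syn1 with Araf had 23, 31 and 14 against 86, 85 and 75 (2.59 ± 0.24 SE, adjusted p = 3.01e-12 by edgeR). The Pclo locus had 85, 44 and 68 against 400, 368 and 311 (3.21 ± 0.15 SE, adjusted p = 2.18e-21 by edgeR). The loci of Slc32a1, Sv2b, Syn2, Syn3 and Syt4 were higher by 6.76, 8.77, 7.56, 4.57 and 8.98 on the log2 scale. Those of Unc13a and Synj1 were lower, at -1.39 and -1.12. The Rab3a locus barely passed (0.62 ± 0.29 SE, adjusted p = 0.0455 by edgeR) and lost the call when any 1 library was left out. A sum over both strands cannot separate the mRNA of a vesicle gene from that of an independent neighbour such as Araf or Timp3.

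The share of a locus's counts that fell on the listed gene was lower in neurons at most loci. For Syp it was 16.4%, 10.6% and 13.7% in ESCs and 0.368%, 0% and 0.523% in neurons. For Syn1 it was 87.0%, 90.3% and 71.4% against 11.6%, 8.24% and 9.33%, and for Pclo 37.6%, 29.5% and 38.2% against 0.750%, 1.09% and 0.643%. Rab3a went from 92.0 ± 1.36% to 48.5 ± 8.32%, Syn2 from 93.3 ± 11.5% to 2.30 ± 0.489% on at most 5 ESC counts a library, and Syn3 from all counts of the locus in each ESC library to 72.2 ± 0.280% in neurons (SD, n = 3). Unc13a kept 98.3 ± 1.04% and 92.3 ± 1.22%. Synj1 and Syt4 held under 2% in every library. Exact two-sided permutation tests over 10 loci gave p = 0.1 for 8 of them, the smallest that 3 against 3 libraries allow, and p = 0.4 for Slc32a1 and Synj1 (0.125 and 0.4 after Benjamini-Hochberg adjustment), so the design cannot reach 0.05 here.

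**Figure D4:**
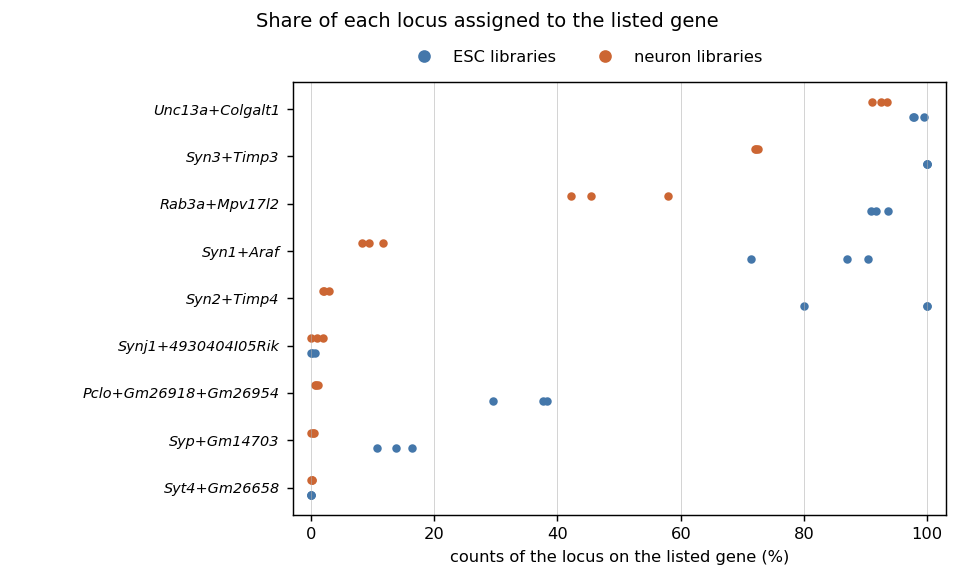
Percent of a locus's counts assigned to the listed gene, per library (blue ESC, orange neuron), for 9 loci; the locus counts are the sum of the listed gene and its opposite-strand neighbours, and the Slc32a1 and Sv2b loci are left out because their ESC libraries hold at most 3 counts. At Syp, Syn1, Syn2 and Pclo the neuron libraries lie far below the ESC libraries, at Unc13a both groups stay above 90%.

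For 22 listed genes no exon lies within the span of an opposite-strand gene, so they share no exonic base with one. In Sv2c, Syt1, Snap25, Rims1, Rims2 and Sh3gl2, which are among them, an opposite-strand gene lies inside an intron. Of the 22, 18 stayed under 10 counts in every library, and the highest count of any was 64, for Slc17a7. Napb and Slc17a7 were tested, and they passed in opposite directions. In CPM, 9 of the 22 lay apart and higher in neurons and 3 apart and lower. Among all 28820 genes with at least 1 count, 24.2% lay apart and higher and 22.8% apart and lower. In 7 further listed genes, exons lie opposite introns of an opposite-strand gene but opposite none of its exons. Of these 7, 4 were tested, with Syt2 and Dnm1 higher and Vamp1 and Bsn lower.

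The rest of the pathway, 107 further genes of the vesicle cycle in 6 lists, of which 106 were in the table, held genes past the test in both directions. Among them, 33 were tested and 30 passed, 13 higher and 17 lower in neurons, beside 85.6% of all tested genes, and 63 stayed under 10 counts everywhere. With total counts as the scaling the split was 16 higher and 13 lower. The median log2 fold change of the 33 was -0.77.

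Of 6 other fusion genes tested, 1 passed as higher and 4 as lower. Stx4a, a syntaxin of constitutive and regulated exocytosis, had 11, 5 and 4 counts in ESCs and 180, 158 and 137 in neurons, with a log2 fold change of 5.29 ± 0.25 (SE, adjusted p = 3.31e-21 by edgeR). Doc2a, a calcium sensor of spontaneous release, fell by 2.20 on the log2 scale, from 993, 1144 and 853 counts to 120, 140 and 129. Both other synaptotagmins tested passed, Syt15 at 1.59 and Syt12 at -3.09.

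Of 7 active zone genes tested, 2 passed as higher, Ppfia2 at 4.91 and Lin7b at 3.31, and 4 as lower, led by Ppfia4 at -3.67 and Rimbp2 at -3.63. Ppfia2 and Ppfia4 are paralogues that encode liprins, scaffolds of the active zone. The 4 vesicle membrane and trafficking genes tested passed with Sypl2 higher, at 2.76, and 3 lower, Rph3a (rabphilin, a Rab3 effector) at -4.37 and Syngr2 at -3.55 among them. The 3 transmitter loading genes tested were Slc18a1 and Slc18a2, vesicular monoamine transporters, at 2.82 and 1.16, and the proton pump subunit Atp6v1g2 at -0.77. Of 11 endocytosis genes, 6 were higher and 4 lower. Bin1 (amphiphysin 2) and the scaffold Itsn2 were higher at 5.21 and 2.78, and Pacsin1 (syndapin I) and Itsn1 fell by 4.23 and 2.60 on the log2 scale. All of these passed the edgeR test with Benjamini-Hochberg adjustment. Where a group held 1 to 3 counts in all, the fitted change is loose. Bin1, with 0, 0 and 1 counts in ESCs and 8, 11 and 13 in neurons, had a ratio of 53.8 (exact 95% counting interval 8.99 to 2192), and Ppfia2, with 1, 0 and 0 against 7, 13 and 6, one of 43.7 (7.18 to 1793). The ESC level was 22.6 times the neuron level for Rph3a (7.54 to 111) and 13.9 times for Ppfia4 (4.55 to 68.9), each with 3 neuron counts in all.

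Promoter sequence was looked at because several of these genes are known to be held down outside neurons by the repressor REST, which binds RE1 elements. The 250 bases before the start were taken from RefSeq on GRCm38.p6 for 42 promoters of 32 listed genes and for all 32851 promoters, and 6 motifs were searched on both strands. The GC box GGGCGG stood in 57.1% of the listed promoters and in 32.7% of all, and TTCAGCACC, one arm of RE1, in 1, that of Syn1, and in 0.301% of all. The cAMP response element TGACGTCA stood in 4.76% of the listed promoters (Syn1 and Sh3gl2) and in 1.55% of all. The E box CACGTG stood in 4.76% and 6.02%, the NRF1 consensus in 2.38% (Bsn) and 0.782%, and TATAAA in 4.76% (Sv2b) and 12.4%. A match is a string of letters and not a bound site. The Syn1 promoter is shown because it held both the RE1 arm and the response element, here in capitals, at chrX:20920919-20921168 on the minus strand.
Syn1: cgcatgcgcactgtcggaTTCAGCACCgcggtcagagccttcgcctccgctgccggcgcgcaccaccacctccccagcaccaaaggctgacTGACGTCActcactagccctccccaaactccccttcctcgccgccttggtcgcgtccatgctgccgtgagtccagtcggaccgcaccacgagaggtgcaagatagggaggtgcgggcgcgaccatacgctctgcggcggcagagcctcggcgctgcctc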

How the data were processed

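Bulk mRNA of 3 ESC and 3 cortical neuron samples was sequenced by the authors in paired-end reads. The deposited table gives whole-number counts per gene, with each gene's exons, strand and exonic length. Per the submitters' processing notes, the work used cutadapt, STAR and RSEM and the builds GRCm39 and mm39; versions, the counter that made the table and its strand setting are not given in the sources used here. Gene coordinates are those of the table. Symbols matched 91.3% of its identifiers. Shared sequences come from GENCODE M21 on GRCm38 and promoters from RefSeq on GRCm38.p6; no coordinate was converted.

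Counts were scaled by TMM and tested with edgeR 4.0.16 (robust quasi-likelihood fit, minimum count 10, R 4.3.3), all 6 samples, no covariate, Benjamini-Hochberg adjustment over 7150 genes and a threshold of 0.05; glmTreat tested against 2-fold. The SE is the log2 fold change divided by the square root of F. CPM of a gene was divided by its exonic length for levels per kb. The opposite-strand rule was applied to the table's exons. On simulated data of 7150 genes with 200 changed 4-fold, 85.5% of the changed genes were called and 3.93% of calls were unchanged genes. The simulation changed few genes, as many up as down, whereas 85.6% of the tested genes passed in the data. Its rates therefore cannot be carried over to the data. Every one of the 52 genes is named; per-library counts are given for tested genes and pairs, full statistics for those that passed and for the 3 highest levels per kb, and from each further pathway list the 2 highest and 2 lowest changes; 1 further pathway gene and 1 sequence that fall under this are not reported here. Some counts of untested genes are given in addition. The members, the 6 pathway lists and the 8 marker lists were chosen with earlier results of these data known. Alternatives were DESeq2 1.42.0, limma-voom 3.58.1, other scalings and filters, a replicate block and leaving out each library.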

Additional observations from a re-analysis of the deposited data

How the results depend on the processing

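The 20 genes that passed kept direction and call in all 247 refits that tested them. Some genes were not tested in every setting. Syn2, Syt2 and Napb had too few counts for a test when any ESC library was left out. Napb was also untested without neuron library 1 or neuron library 2. With a mean of at least 10 counts required, Syn2, Syt2, Napb, Dnm1 and Mpv17l2 were not tested. DESeq2 called 20 of the 52 genes and limma-voom 20. Without a filter, 29 of the 52 passed against 2-fold in place of 19, and 11762 of 28820 genes in all passed 0.05. Restricting the fit to genes whose exons face no exon of another gene left 3 of the 52 to test, all 3 passing as lower, and 11 of 12 further pathway genes passing (3 higher, 8 lower); fewer genes were tested there. Leaving out 1 library each gave 18 to 23 of the 52 past 0.05, 16 to 23 past 2-fold, 5430 to 7353 genes in all, 21 to 31 further pathway genes and 10 of 11 summed loci. With total counts the median log2 fold change of all genes moved from 0.37 to 1.10 and the share of calls that were higher from 54.9% to 65.5%; Syn1 turned to 0.20 and Rab3a to 0.41, and Rab3a was 0.04 with a mean of at least 10 counts. None of these values was called, and the cause was not tested. The share of the library on the 40 genes differed by 0.0303 percentage points, and by 0.0426 without the 10 genes with the most counts. The labels number the replicates 1 to 3 in both groups, but same-numbered libraries did not deviate together (r = 0.0151, 0.0038 and -0.0178). With a replicate block 21 of the 52 genes, 6088 genes in all, 30 further pathway genes and 11 loci passed, the added one being Colgalt1 (0.84, adjusted p = 0.0391 by edgeR). Depth limits the listed genes: 26 of 40 had under 10 counts everywhere.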

Other observations

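Genes that lie near a listed gene on the other strand, without sharing a base with it, were looked up after the counts were seen, and only as values. 5830417I10Rik starts 52 bases upstream of Syt11 and had 3, 4 and 5 counts in ESCs and 587, 503 and 488 in neurons (log2 fold change 7.73 ± 0.21 SE, adjusted p = 3.75e-29 by edgeR), while Syt11 had at most 8. Gm15873, 9190 bases downstream of Syt5, had 246, 177 and 194 counts in ESCs and 2, 1 and 0 in neurons (-6.80 ± 0.37 SE, adjusted p = 1.88e-19 by edgeR), while Syt5 had at most 3. Gzf1, 1036 bases downstream of Napb, had 2, 3 and 0 against 12, 6 and 7 (2.96 ± 0.56 SE, adjusted p = 9.48e-06 by edgeR). Gfy, 207 bases downstream of Slc17a7, had 4, 0 and 3 against 0 in every neuron library.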
